A study of Mus musculus with 12 samples.

Results

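The stretch from 101 to 500 bp downstream of the transcription start site (TSS) was described in average profiles of histone H4 acetylated at lysine 12 (H4K12ac). It was chosen by position alone and holds 400 of the 4001 positions of each profile. Profiles came from chromatin immunoprecipitation and sequencing (ChIP-seq) of mouse brain nuclei, and CA1, a hippocampal subfield, appears in the file headers. All animals were wild-type C57B/6JRj mice, and their nuclei are labelled neuronal or non-neuronal, the latter named glia in the file headers. Animals of the transgenic line in the series title are not analysed here. The 3 conditions were 3 months of age with vehicle, 20 months with vehicle and 20 months with SAHA. As vehicle, 18 g/L of cyclodextrin in water was used, and SAHA (vorinostat), an inhibitor of histone deacetylases, was given at 0.67 g/L in the same vehicle, by mouth for 4 weeks. For each of 6 groups there was 1 ChIP library and its input, which is sonicated chromatin sequenced without antibody. Nothing in the sources used here says whether nuclei of several animals were pooled. The profiles hold no genes, so the populations could not be checked against markers, and no single promoter or sequence can be shown.

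Histone acetyltransferases add acetyl groups to lysines of the H4 tail and deacetylases remove them, and acetylated tails are bound by bromodomain proteins of the transcription machinery. At active genes the TSS lies in a stretch poor in nucleosomes, and the first nucleosomes downstream of it are well positioned and carry much of the acetylation. In mouse hippocampus H4K12ac is known for its link to memory formation.

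Tests are exact, two-sided permutation tests that flip the signs of paired differences. Between populations the pairs are the 3 conditions, with 1 library of either population in each. These pairs are not replicates of 1 condition, and their SD also holds differences between conditions. With 1 library per group, age and SAHA differences have no replicate error and no test. Intervals given below are 95% intervals for counting error, from the size of 1 read in each profile, and leave out sharing of reads by neighbouring TSS and variation between animals and preparations. Signal is the deposited value multiplied by 1000. In a bulk profile, fewer nuclei or promoters with the mark and less of the mark on each cannot be told apart. The number by which each library appears to have been divided, the inverse of its smallest unit of signal, ranged from 36400000 to 65700000 for ChIP and from 42200000 to 78000000 for input.

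The H4K12ac profile had a single rounded summit in this stretch in all 6 ChIP libraries. A running mean over 51 positions held 1 maximum per library, so neighbouring nucleosomes were not resolved. Reads were counted over 300 bp, which is longer than the DNA wound on 1 nucleosome. The mean signal over the 400 positions in neuronal nuclei was 13.6 (young vehicle), 11.5 (aged vehicle) and 13.2 (aged SAHA). It was 15.2, 13.7 and 14.5 in non-neuronal nuclei in the same order. The aged vehicle library was the lowest of its population in both cases, and the counting error of these means was 0.102% to 0.139%.

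**Figure D1:**
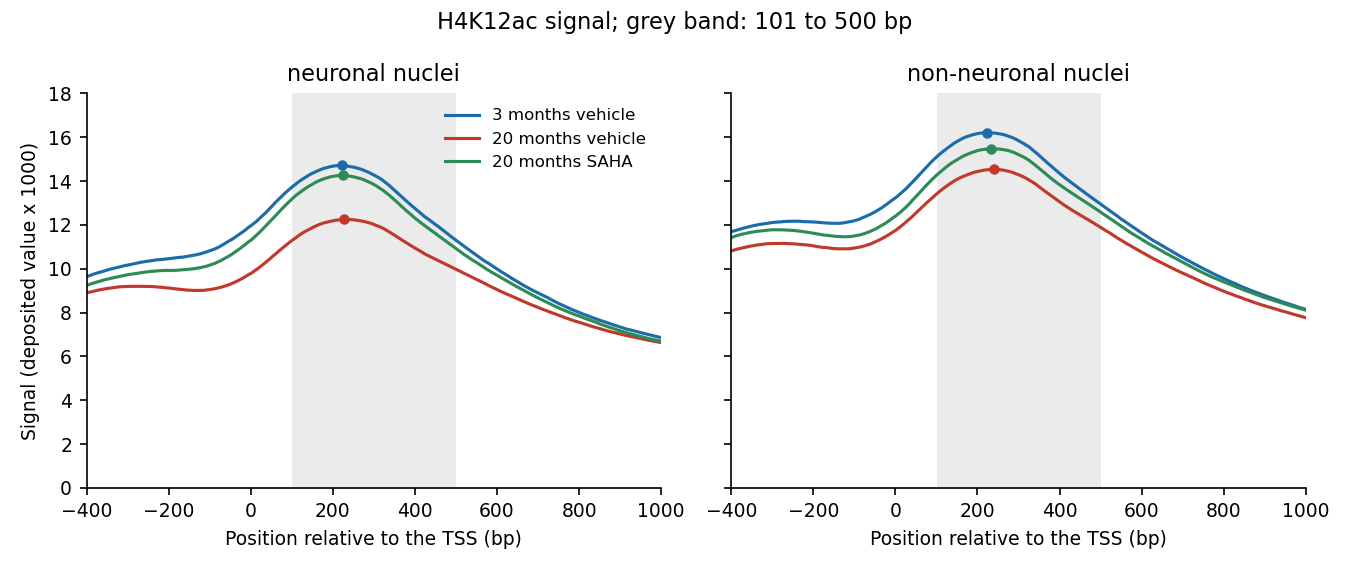
H4K12ac signal (deposited value multiplied by 1000) against position relative to the TSS in bp, for neuronal (left) and non-neuronal nuclei (right), with 1 line per library and a dot at each summit. Every library has 1 summit inside the grey band of 101 to 500 bp, and the aged vehicle line (height 12.3 in neuronal and 14.5 in non-neuronal nuclei) lies lowest in both panels.

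At 101 bp the elevation over the flank was already 86.7% to 89.8% of the summit's. In young neuronal nuclei the signal was 13.7 at 101 bp, 14.7 at 200 bp, 14.3 at 300 bp, 12.8 at 400 bp and 11.3 at 500 bp. At the same positions the aged vehicle neuronal library had 11.3, 12.2, 12.03, 10.9 and 9.98, and the aged SAHA neuronal library 13.2, 14.2, 13.8, 12.3 and 10.9. These 2 neuronal libraries with the higher signal, young vehicle and aged SAHA, lay closer to each other than to the aged vehicle library at all 5 positions. The young non-neuronal library had 15.1, 16.2, 15.9, 14.4 and 12.9. The aged vehicle non-neuronal library had 13.4, 14.4, 14.3, 13.1 and 11.9, and the aged SAHA library 14.3, 15.4, 15.2, 13.8 and 12.6. Among non-neuronal libraries the SAHA one lay between the other two at each of these positions.

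The summit was the highest point of the whole profile. It stood at 222, 228 and 225 bp in neuronal nuclei (3 months, 20 months with vehicle, 20 months with SAHA) and at 223, 240 and 233 bp in non-neuronal nuclei. The top was flat, so the highest single position is a coarse measure. The positions within 1% of the height spanned 86 to 101 bp. The position was therefore also taken as the vertex of a quadratic fitted within 50 bp of the maximum. The vertex was 219.9 ± 1.6 bp (counting error) in young neuronal nuclei, 233.5 ± 1.5 bp with age and vehicle, and 223.1 ± 1.3 bp with SAHA. Non-neuronal vertices were at 226.2 ± 1.6, 238.7 ± 1.5 and 237.7 ± 1.5 bp. In the ChIP signal the aged vehicle vertex lay downstream of the young one in both populations, and the SAHA vertex lay nearer the young one in neuronal nuclei and nearer the aged vehicle one in non-neuronal nuclei.

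**Figure D2:**
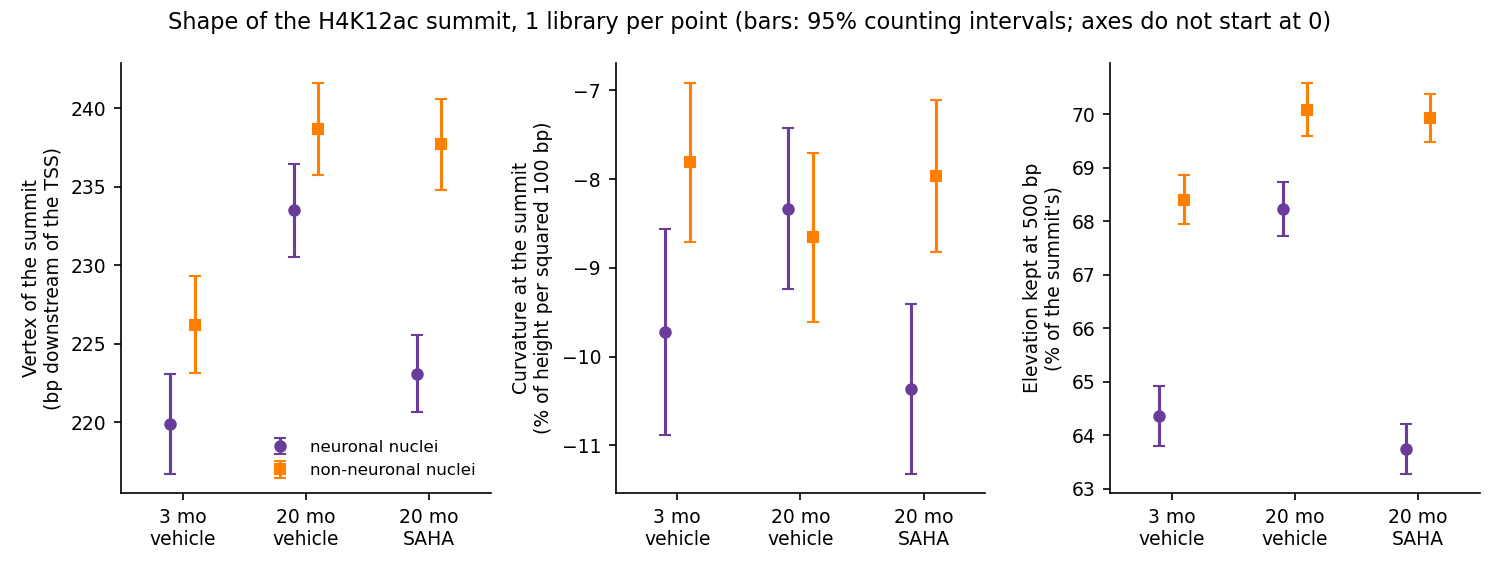
Vertex of the summit (bp downstream of the TSS), curvature at the summit (% of the height per squared 100 bp) and elevation kept at 500 bp (% of the summit's) for the 6 ChIP libraries, by condition. Points are single libraries and bars are 95% counting intervals, not replicate error. In this signal, which is not divided by input, the vertex at 20 months with vehicle lies downstream of that at 3 months in both populations (233.5 against 219.9 bp and 238.7 against 226.2 bp).

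The vertex of the ChIP signal was 13.6 bp further downstream at 20 than at 3 months in neuronal nuclei (95% counting interval 9.24 to 17.9) and 12.5 bp in non-neuronal nuclei (8.24 to 16.8). For SAHA against vehicle at 20 months it differed by -10.4 bp in neuronal (-14.3 to -6.57) and by -0.99 bp in non-neuronal nuclei (-5.12 to 3.14). Set against young vehicle, the SAHA vertex differed by 3.17 bp (-0.85 to 7.19) in neuronal and by 11.5 bp (7.26 to 15.7) in non-neuronal nuclei. In the ratio to own input the vertices were at 214.5, 235.3 and 218.7 bp in neuronal and at 233.8, 233.2 and 245.7 bp in non-neuronal nuclei (young vehicle, aged vehicle, aged SAHA). On this scale the neuronal differences kept their directions, at 20.8 bp for age (10.9 to 30.7) and -16.6 bp for SAHA (-26.2 to -6.97). The non-neuronal ones changed sign, to -0.56 bp for age (-9.78 to 8.67) and 12.5 bp for SAHA (4.47 to 20.5).

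Neuronal vertices of the ChIP signal lay upstream of non-neuronal ones in 3 of 3 conditions, by -6.29, -5.20 and -14.6 bp for young vehicle, aged vehicle and aged SAHA. The mean difference was -8.71 ± 5.16 bp (SD, n = 3 pairs, exact permutation p = 0.25, which 3 pairs cannot go below). For the highest single position the mean was -7.00 ± 5.57 bp (SD, n = 3 pairs, exact permutation p = 0.25). In the ratio to own input the aged vehicle pair turned, at 2.09 bp, which left 2 of 3 conditions and a mean of -14.7 ± 15.0 bp (SD, n = 3 pairs, exact permutation p = 0.5).

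The height at the summit was 14.7, 12.3 and 14.3 in neuronal nuclei and 16.2, 14.5 and 15.5 in non-neuronal nuclei. With age the height differed by -16.8% in the neuronal and by -10.3% in the non-neuronal pair. For SAHA it differed by 16.4% and 6.41%. After division by own input at the summit, the log2 difference for age came to -0.43 (neuronal) and -0.0054 (non-neuronal), against -0.26 and -0.16 for ChIP alone. For SAHA it was 0.37 and -0.14, against 0.22 and 0.090, so the non-neuronal direction turned. Neuronal summits were lower in 3 of 3 conditions, by -1.66 ± 0.56 on average (SD, n = 3 pairs, exact permutation p = 0.25). The signal at the ends of the profiles differed alike: the flank, the mean of the outermost 10% of positions on each side, ranged from 5.05 to 5.14 for neuronal ChIP and from 5.70 to 5.89 for non-neuronal ChIP. With each ChIP library divided by its own flank, the mean log2 difference in height was 0.022 in place of -0.17, so the direction of the population difference in height depends on the scale.

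The rise from position 101 to the summit was small and alike in the aged libraries. It was 7.13% in young neuronal and 7.20% in young non-neuronal nuclei, and 8.06% to 8.43% in the 4 aged libraries. The age difference in this rise was 1.30 percentage points in neuronal (95% counting interval 0.86 to 1.74) and 1.11 in non-neuronal nuclei (0.71 to 1.51). SAHA against vehicle differed by -0.37 (-0.77 to 0.028) and 0.020 (-0.38 to 0.42) percentage points. Between populations the rise differed in both directions (neuronal below non-neuronal in 2 of 3 pairs), averaging -0.078 ± 0.20 percentage points (SD, n = 3 pairs, exact permutation p = 0.75).

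Curvature at the summit is the second derivative of the fitted quadratic, given as a percentage of the height per squared 100 bp, and is more negative for a sharper summit. It was -9.72 ± 0.59 (counting error) in young, -8.33 ± 0.46 in aged vehicle and -10.4 ± 0.49 in aged SAHA neuronal nuclei. In non-neuronal nuclei it was -7.81 ± 0.46, -8.66 ± 0.49 and -7.96 ± 0.44. Fitted within 50 bp and scaled to the height, young and SAHA neuronal summits were the sharpest of the 6. The aged vehicle neuronal value lay among the non-neuronal ones. The SAHA difference in neuronal nuclei was -2.03 (95% counting interval -3.35 to -0.72). The neuronal age difference of 1.39 (-0.081 to 2.87) and the non-neuronal age (-0.84, -2.15 to 0.47) and SAHA differences (0.69, -0.59 to 1.98) had intervals that include 0. Neuronal summits were sharper in 2 of 3 conditions, with a mean difference of -1.33 ± 1.45 (SD, n = 3 pairs, exact permutation p = 0.5).

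Fitted within 100 bp, with a smaller counting error, curvature was -9.17 ± 0.21, -8.56 ± 0.17 and -9.96 ± 0.17 in neuronal and -8.44 ± 0.16, -8.39 ± 0.17 and -8.60 ± 0.16 in non-neuronal nuclei. On this wider fit the 3 non-neuronal summits were nearly equal, and both non-neuronal differences changed sign, to 0.055 for age and -0.21 for SAHA. The neuronal SAHA difference was -1.40 and the neuronal age difference 0.61, with the directions of the narrower fit. Neuronal summits were sharper in each condition on the wider fit, by -0.75 on average (n = 3 pairs, exact permutation p = 0.25). Whether the aged vehicle pair goes with the other pairs thus depends on the width of the fit.

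After the summit the signal decayed without a second maximum. From the summit to 500 bp the change was -23.2% in young, -18.5% in aged vehicle and -23.4% in aged SAHA neuronal nuclei. Non-neuronal nuclei had -20.1%, -18.2% and -18.7%. The steepest point of the decay lay between 357 and 366 bp in all 6 libraries. There the slope, taken over 50 bp, was -11.8% to -9.61% of the height per 100 bp. By 475 bp it was -9.73% to -7.44%, so the decay had passed its steepest part before the end of the stretch. The elevation over the own flank came down to 50% of the summit's at 605 bp in young and SAHA neuronal nuclei and at 644 bp in aged vehicle ones. In non-neuronal nuclei this point lay at 651, 665 and 664 bp.

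**Figure D3:**
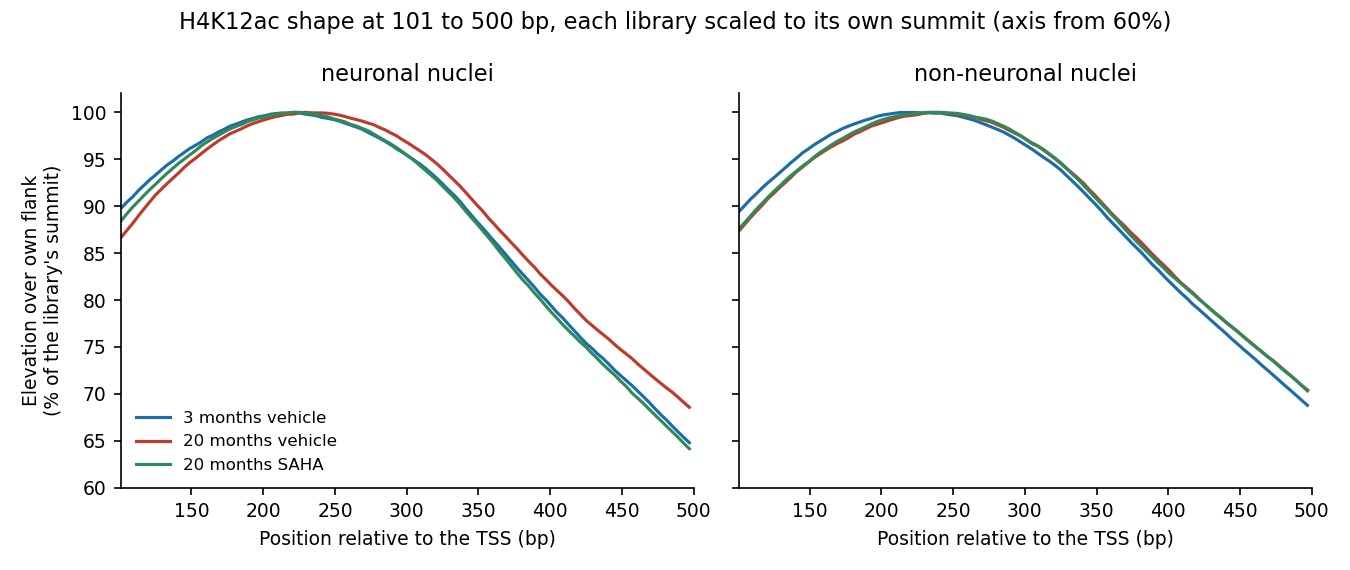
Elevation of H4K12ac over each library's own flank, as a percentage of that library's summit, against position from 101 to 500 bp, for neuronal (left) and non-neuronal nuclei (right), 1 line per library. The aged vehicle neuronal line starts below the young and SAHA lines at 101 bp, at 86.7% against 89.8% and 88.5%. After the summit it lies above them and ends at 68.2%, against 64.4% and 63.7%. The 3 non-neuronal lines end between 68.4% and 70.1%.

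The share of the summit's elevation kept at 500 bp was the main measure of decay. It was 64.4% ± 0.29 (counting error) in young, 68.2% ± 0.26 in aged vehicle and 63.7% ± 0.24 in aged SAHA neuronal nuclei. In non-neuronal nuclei it was 68.4% ± 0.24, 70.1% ± 0.26 and 69.9% ± 0.23. The aged vehicle neuronal library kept nearly as much as the young non-neuronal one, and the other 2 neuronal libraries kept the least of the 6. The age difference was 3.87 percentage points in neuronal (95% counting interval 3.11 to 4.62) and 1.68 in non-neuronal nuclei (0.998 to 2.36). For SAHA it was -4.48 (-5.16 to -3.79) and -0.16 (-0.83 to 0.51) percentage points. Set against young vehicle the SAHA value differed by -0.61 (-1.34 to 0.12) in neuronal and by 1.52 (0.88 to 2.16) in non-neuronal nuclei. In the ratio to own input the neuronal differences were 4.79 for age (3.22 to 6.36) and -5.94 for SAHA (-7.45 to -4.43). The non-neuronal ones changed sign there, to -0.36 for age (-1.75 to 1.03) and 3.16 for SAHA (1.84 to 4.47).

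Neuronal libraries kept less of their elevation in 3 of 3 conditions, by -4.05, -1.86 and -6.18 percentage points (-5.33, -0.18 and -9.27 in the ratio to own input). The mean was -4.03 ± 2.16 (SD, n = 3 pairs, exact permutation p = 0.25). The straight slope past 300 bp had the same direction, at -9.91% of the height per 100 bp in neuronal and -8.88% in non-neuronal nuclei on average. Its difference was -1.02 ± 0.85 (SD, n = 3 pairs, exact permutation p = 0.25). In the ChIP signal the highest position of each aged library lay downstream of the young one's. The shift was from 3 bp (neuronal, SAHA) to 17 bp (non-neuronal, vehicle), so the distance to 500 bp was not the same in all libraries. The part of this distance in the differences was not tested. At 200 bp after its own summit each neuronal library kept 75.9%, 77.4% and 75.0%, and each non-neuronal library 78.8%, 77.6% and 78.6%. On that measure the neuronal age difference was 1.59, and the non-neuronal age difference changed sign to -1.14 percentage points.

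The ChIP signal of each library stood above its own input over the stretch. The fold was 3.25, 2.47 and 3.11 in neuronal and 3.32, 3.30 and 3.02 in non-neuronal nuclei. Averaged over the pairs, the log2 ratio came to 1.62 ± 0.16 (SD, n = 6, higher in ChIP in 6 of 6, exact permutation p = 0.03125, which 6 pairs cannot go below). In the flanks ChIP also exceeded input, with folds of 1.27, 1.25 and 1.25 in neuronal and 1.43, 1.41 and 1.41 in non-neuronal nuclei. Part of the excess over input was thus not particular to the stretch. With the flank fold taken out, the mean log2 ratio was 1.20 (n = 6, exact permutation p = 0.03125). The 6 pairs come from 6 groups and are not replicates of one. Divided position by position, the ratio peaked at 214, 240 and 225 bp in neuronal and at 230, 237 and 237 bp in non-neuronal nuclei, at 2.62 to 3.53. It had come down to 2.18 to 2.88 at 500 bp.

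The inputs had no summit like that of the ChIP libraries but were not all flat. Their mean over the stretch was 4.14 to 4.80. It exceeded the own flank by 13.6% in aged vehicle neuronal, 11.0% in young non-neuronal and 15.6% in aged SAHA non-neuronal nuclei. These 3 inputs were highest at 141, 178 and 155 bp, upstream of every ChIP summit. In the other 3 inputs, young and aged SAHA neuronal and aged vehicle non-neuronal, the excess was 3.77%, 4.91% and 2.65%, and the highest position lay at 331 bp or further downstream. The curvature of inputs was -2.74 to -0.029 on the scale used for ChIP.

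**Figure D4:**
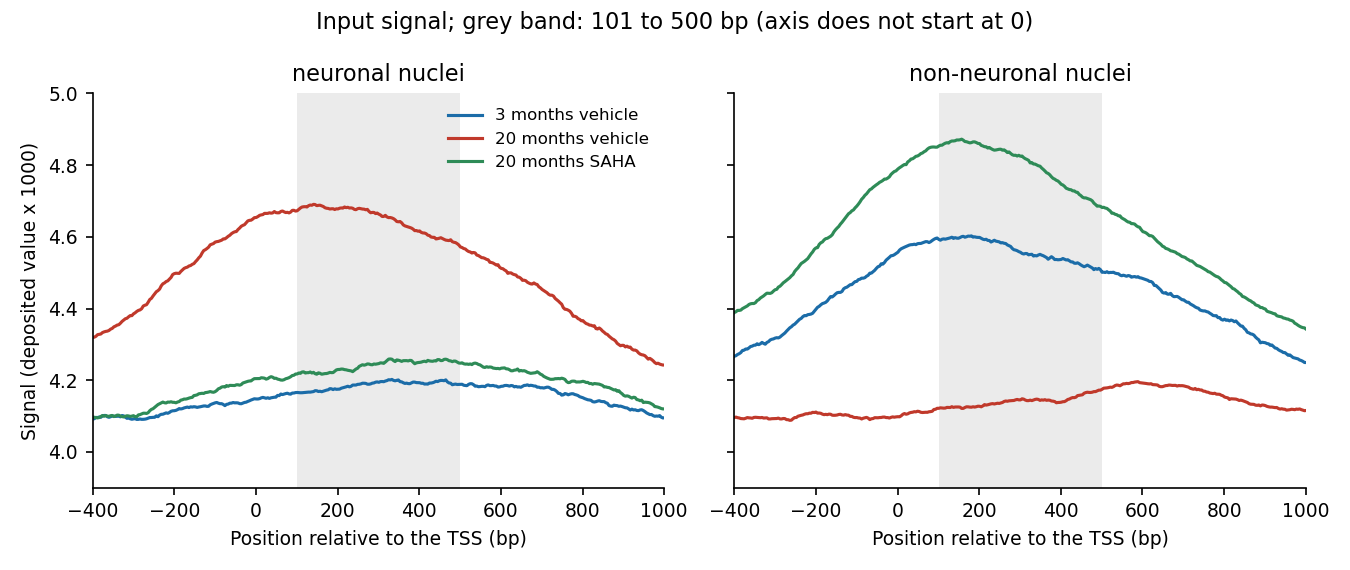
Input signal (deposited value multiplied by 1000) against position relative to the TSS in bp, for neuronal (left) and non-neuronal nuclei (right), 1 line per library, on an axis that starts at 3.9. In the grey band of 101 to 500 bp the aged vehicle neuronal (mean 4.65), young non-neuronal (4.56) and aged SAHA non-neuronal inputs (4.80) lie above the other 3 (4.14 to 4.24).

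For age, the neuronal ChIP mean over the stretch was 11.5 at 20 and 13.6 at 3 months, which is -15.6% (log2 -0.24, 95% counting interval -0.25 to -0.24). All 400 positions were lower by over 5%, against 37% of the 4001 positions of the profile. As each read is counted over 300 bp, neighbouring positions share reads. This count and the like ones below are thus not of independent positions. The difference was greatest at the upstream end, at -17.8% at 101 bp. It was -17.0% at 200 bp, -15.8% at 300 bp, -14.2% at 400 bp and -11.7% at 500 bp. The stretch thus held a difference that narrowed toward the gene body. From 200 bp upstream to 100 bp downstream the mean difference was -16.8%, and past 500 bp it was -4.05%. Divided by own input, the log2 difference over the stretch was -0.40 (95% counting interval -0.41 to -0.39), and the inputs alone differed by 0.15 in the opposite direction. The young ChIP library had the smallest divisor, 36400000, and the aged vehicle one the greatest, 65700000, and the part of the divisor in this difference was not tested.

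In non-neuronal nuclei the ChIP mean was 13.7 at 20 and 15.2 at 3 months, which is -9.85% (log2 -0.15, 95% counting interval -0.154 to -0.145). Here too all 400 positions were lower by over 5%, against 46.6% of the whole profile. The difference was -11.2% at 101 bp and -8.10% at 500 bp, and spanned 3.08 percentage points, against 6.06 in neuronal nuclei. It was -10.6% in the stretch before and -4.92% past 500 bp. After division by own input the log2 difference was -0.0099 (-0.019 to -0.0010), and the inputs alone differed by -0.14. On the log2 scale the age difference of the non-neuronal ChIP libraries was therefore nearly matched by that of their inputs. With own input subtracted it was not smaller, at -0.154 against -0.150 for ChIP alone. Divisors were 52100000 (young) and 52800000 (aged vehicle) for ChIP, and 44900000 and 78000000 for the inputs. Their part in the difference was not tested.

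**Figure D5:**
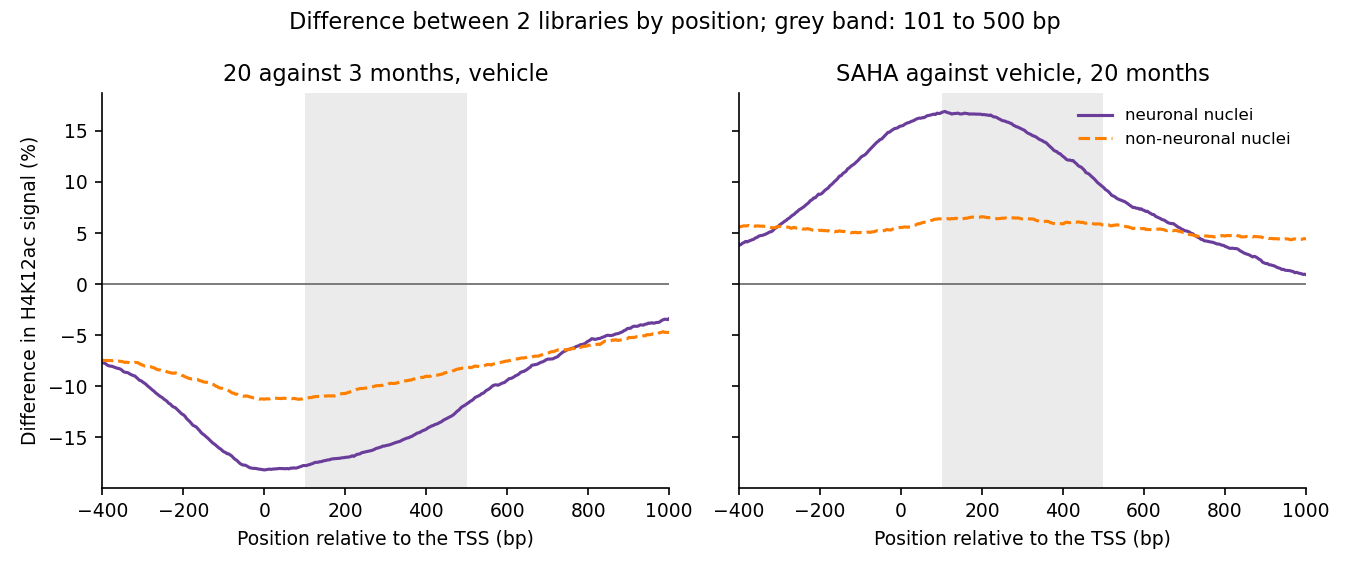
Difference in H4K12ac signal between 2 libraries, in percent, against position relative to the TSS in bp, for 20 against 3 months with vehicle (left) and SAHA against vehicle at 20 months (right); the solid line is neuronal and the dashed line non-neuronal nuclei. Across the grey band of 101 to 500 bp the neuronal age difference goes from -17.8% to -11.7% and the neuronal SAHA difference from 16.8% to 9.45%, while the non-neuronal SAHA difference stays between 5.76% and 6.62%.

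For SAHA, the neuronal ChIP mean was 13.2 with SAHA and 11.5 with vehicle, which is 14.6% more (log2 0.20, 95% counting interval 0.19 to 0.20). All 400 positions were higher by over 5%, against 26.1% of the whole profile. The difference was 16.8% at 101 bp, 16.6% at 200 bp, 15.1% at 300 bp, 12.5% at 400 bp and 9.45% at 500 bp, and was greatest at 109 bp with 16.9%. It was 13.8% from 200 bp upstream to 100 bp downstream and 1.71% past 500 bp. Divided by own input, the log2 difference was 0.33 (0.32 to 0.34), and the inputs alone differed by -0.13. The divisors of the 2 ChIP libraries were 54100000 with SAHA and 65700000 with vehicle. Their part in the difference was not tested.

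The non-neuronal ChIP mean was 14.5 with SAHA and 13.7 with vehicle, which is 6.28% more (log2 0.088, 95% counting interval 0.084 to 0.092). All 400 positions were higher by over 5%, against 30.8% of the whole profile. The difference was nearly level across the stretch, from 5.76% at 500 bp to 6.62% at 203 bp, and still 4.14% past 500 bp. Divided by own input it was below 0, at a log2 of -0.13 (-0.13 to -0.12), while the inputs alone differed by 0.21. With own input subtracted it stayed above 0, at a log2 of 0.030. The direction of the non-neuronal SAHA difference therefore depends on how the input is taken into account. Divisors were 62800000 with SAHA and 52800000 with vehicle for ChIP, and 65900000 and 78000000 for the inputs. Their part in the difference was not tested. The 2 age comparisons and the 2 SAHA comparisons share the aged vehicle library of each population, so a low or high value of that library moves both.

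Set side by side with young vehicle, the aged SAHA libraries were slightly lower across the stretch. The ChIP difference was -3.29% in neuronal (log2 -0.048, 95% counting interval -0.053 to -0.043) and -4.19% in non-neuronal nuclei (log2 -0.062, -0.066 to -0.058). In neuronal nuclei it stayed between -3.92% and -2.96% at all positions. In non-neuronal nuclei it went from -5.50% at 101 bp to -2.80% at 500 bp. Divided by own input the log2 differences were -0.067 (-0.076 to -0.058) and -0.14 (-0.14 to -0.13).

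Neuronal ChIP signal was lower than non-neuronal in each condition, by -10.2% at 3 months, -15.9% at 20 months with vehicle and -9.35% at 20 months with SAHA. The mean log2 difference was -0.18 ± 0.059 (SD, n = 3 pairs, lower in 3 of 3, exact permutation p = 0.25). All 400 positions were lower by over 5% in each condition, but so were 100% of the 4001 positions in each, so the count says nothing of this stretch. At 3 months the difference widened from -9.11% at 101 bp to -12.7% at 500 bp, and with SAHA from -7.59% to -13.2%. In the aged vehicle pair it stayed between -16.3% and -15.5%. Divided by own input, the mean log2 difference over the stretch was -0.14 ± 0.25 (SD, n = 3 pairs, exact permutation p = 0.75), and 0.0033 without the aged vehicle pair. Divided by the own flank as well, it was 0.038.

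Relative to its neighbours the stretch held the top of the profile. The ChIP mean over the 400 positions was 88.1% to 90.2% of the summit's elevation over the flank. The 300 positions from 200 bp upstream to 100 bp downstream held 63.4% to 68.6% of that elevation, and the 1501 positions past 500 bp held 16.5% to 20.0%. The population difference divided by own input was less negative or more positive here than in the 300 positions before in 3 of 3 conditions, and the gap averaged 0.014 ± 0.0059 in log2 (SD, n = 3 pairs, exact permutation p = 0.25). Against the positions past 500 bp the mean was 0.065 ± 0.19 (SD, n = 3 pairs, exact permutation p = 0.75), and it was -0.0070 without the aged SAHA pair, so no direction can be given.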

How the data were processed

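The submitters' processing notes name CASAVA 1.8.2, Bowtie2 and the build mm10. Each deposited profile holds normalized signal, as the authors' column headers call it, at 4001 positions from -2000 to 2001 (0 is absent). Not given in the sources used here are the scaling, the TSS and what was done with duplicates. Members, measures and tests were chosen with earlier results of these data known. Groups came from source names, and inputs were paired through titles.

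The main level was the log2 ratio of mean ChIP to mean own input over 101 to 500 bp. Positions named were fixed as 101, 200, 300, 400 and 500 bp, the summit, and the extremes of a difference. Steps between neighbouring values were whole multiples of 1 unit (tolerance 0.1) at 100% of positions, taken as 1 read. Reads spanned 300 bp and over-dispersion was 1.56 to 1.70, which gave the 95% counting intervals. The recovery of unit and length was checked on simulated data. So were the counting errors of vertex and curvature, with the fit centred on a fixed, known position. Centring the fit on each library's own maximum, as done here, was not simulated, so error from that step is not covered. Alternatives were ChIP alone, input subtracted, division by the flank, either part of the stretch (up to or past 300 bp), other summit, curvature and decay measures, and leaving out pairs. Vertex and decay of the ratio to own input were added after the data were examined. Python 3.11.15, NumPy 2.4.6 and Matplotlib 3.10.9 were used.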

Additional observations from a re-analysis of the deposited data

Results flagged for a closer look

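Each item here is a contrast in which the values of the populations had opposite signs. With 1 library per group these differences were not tested.

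After division by own input, the log2 SAHA difference of the level from 101 to 500 bp stood at 0.33 for neuronal and -0.13 for non-neuronal nuclei, a gap of 0.45. For ChIP alone both were above 0, at 0.20 and 0.088, and the inputs alone differed by -0.13 and 0.21. The part of the inputs was not tested further.

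The age difference in curvature at the summit was 1.39 for neuronal and -0.84 for non-neuronal nuclei (% of the height per squared 100 bp), a gap of 2.24. The SAHA difference was -2.03 and 0.69, a gap of -2.73. The 95% counting intervals of both age values (-0.081 to 2.87 and -2.15 to 0.47) take in both signs. So does that of the non-neuronal SAHA value (-0.59 to 1.98). Both contrasts share the aged vehicle libraries, and both non-neuronal values changed sign in the fit within 100 bp, to 0.055 and -0.21.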

How the results depend on the processing

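Intervals rest on counting alone, which sets a lower limit to the error because neighbouring TSS can share reads, and single nucleosomes lie below the 300 bp over which reads were counted. Sample numbers in the titles pair each ChIP library with its input, but the labels give no replicate numbers that pair libraries of different groups. Of 170 values under another setting, 16 changed sign, and 52 more were classed as moved from the main value with the sign kept. The 170 include summit positions of single libraries and levels of ChIP over input. Those are not differences, so the share of sign changes understates how often a difference turned. Signs changed in non-neuronal age and SAHA differences and in population differences, not in neuronal age or SAHA differences. Beyond what each setting changes by construction the cause was not tested. The ratio to input for the vertex and for the elevation kept was added after the data were examined. No pseudocount was run, since a mean profile needs none, and ChIP alone gives no value for ChIP over input.

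For the log2 level over own input, ChIP alone gave -0.24 (age, neuronal), -0.15 (age, non-neuronal), 0.20 (SAHA, neuronal), 0.088 (SAHA, non-neuronal, sign changed), and -0.048 and -0.062 (SAHA against young, neuronal and non-neuronal). With input subtracted these 6 were -0.46, -0.15, 0.38, 0.030 (sign changed), -0.079 and -0.12. Divided by the flank, age gave -0.37 and 0.010 (sign changed in non-neuronal nuclei), SAHA against young -0.039 and -0.11, and the population difference 0.038 (sign changed), which was -0.26 with input subtracted. Up to 300 bp the values were -0.43 (age, neuronal), 0.36 and -0.14 (SAHA, neuronal and non-neuronal) and -0.15 (SAHA against young, non-neuronal), and past 300 bp -0.36, 0.29, -0.11 and -0.12.

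The summit position moved for age in neuronal nuclei from 6 to 26 bp (ratio to input) and 22 bp (input subtracted). With input subtracted it moved for SAHA from -3 to -17 bp in neuronal and from -7 to 2 bp in non-neuronal nuclei. The ratio to input gave 7 bp in place of 17 for age in non-neuronal nuclei, and -15 and 0 bp for SAHA. The vertex of that ratio differed by 20.8 and -0.56 bp for age (sign changed in non-neuronal nuclei) and by -16.6 and 12.5 bp for SAHA (sign changed in non-neuronal nuclei), and the running mean over 51 positions by 14 and 13 bp and by -11 and -2 bp. The log2 height over own input was -0.43 and -0.0054 for age (neuronal, non-neuronal) and 0.37 and -0.14 (sign changed) for SAHA. With input subtracted it was -0.48 for age in neuronal nuclei and 0.41 and 0.031 for SAHA. Divided by the ChIP flank it was -0.26 and -0.11 for age, 0.23 and 0.051 for SAHA, and 0.022 between populations (sign changed).

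Curvature fitted within 25 bp gave 3.56 and -4.04 for age (neuronal, non-neuronal) and -4.49 and 2.92 for SAHA. Within 100 bp the non-neuronal values changed sign, to 0.055 for age and -0.21 for SAHA. The population difference was -3.17 within 25 bp and -0.75 within 100 bp, and the neuronal age difference 0.61 within 100 bp. As a percentage of the elevation, age gave 0.66 and -1.96 and SAHA in non-neuronal nuclei 1.43. In the ratio to input the neuronal values were 4.00 for age and -4.62 for SAHA. For the elevation kept, measured 200 bp after the summit, age gave 1.59 and -1.14 (sign changed) and SAHA -2.46 and 0.95 (sign changed). The fall with no flank taken off gave 4.66 for age in neuronal nuclei. The line past 300 bp, in another unit, gave 1.75 and 0.70 for age and -1.86 for SAHA in neuronal nuclei. With input subtracted SAHA in non-neuronal nuclei gave 0.090 (sign changed). In the ratio to input age gave 4.79 and -0.36 (sign changed) and SAHA -5.94 and 3.16 (sign changed).

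Leaving out 1 pair, the mean log2 of ChIP over input ranged from 1.59 to 1.68, with an exact permutation p of 0.0625, the smallest that 5 pairs allow. The population difference in level ranged from -0.22 to 0.0033, the latter without the aged vehicle pair, and its gap to the positions past 500 bp from -0.0070, without the aged SAHA pair, to 0.18.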
